A study of Oryza sativa with 4 samples.

Results

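Heat-only regions are stretches of the rice genome that were called as accessible chromatin in both libraries from heat-stressed (HS) root tips and in neither library from unstressed (Normal) root tips. Merging all peaks with 1 bp or more in common gave 66332 regions over the 4 libraries, and 1588 of these met the rule. The peak calls of the HS and Normal libraries chose these regions, so their presence after heat is a description and was not tested. HS libraries came from Nipponbare rice (Oryza sativa) seedlings grown at 28 °C and, in the account of the study, then held for 3 h at 45 °C. Normal libraries came from Nipponbare seedlings grown at 28 °C without that treatment. All seedlings were 3 days old, and nuclei were taken from the last 5 mm of the primary root after fixation. The sample titles give 2 replicates per condition and do not say whether their seedlings were grown apart. The study describes its HS replicates as 2 independent rounds of the assay. For HS against Normal, p-values measure the spread between these libraries. For groups of nuclei within the HS libraries, they measure how far group differences varied between those libraries. Either spread may be technical.

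The assay, scATAC-seq, tags the DNA of each nucleus with a barcode wherever the enzyme Tn5 can reach between nucleosomes. A cut site is 1 insertion of Tn5, and a peak is a stretch in which cut sites pile up over the pooled nuclei of a library. Heat activates heat shock transcription factors, which bind heat shock elements and recruit the machinery that opens chromatin at chaperone genes. A root tip joins cell types with different open chromatin, among them root hairs, which take up water and ions, the root cap, which shields the growing tip and senses gravity, and the endodermis, the layer whose Casparian strip controls what reaches the stele.

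The HS libraries held 10719 and 10727 nuclei with 328595993 and 334727687 cut sites, and the Normal libraries held 12708 and 12604 nuclei with 341590315 and 340628221 cut sites. Any pair of libraries shared between 163 and 254 nucleus barcodes. A library was counted in its own peaks and nowhere else. A heat-only region therefore has no Normal count, and how far below the HS level the Normal level lay was not measured here. Among 66332 regions, 55496 were called in all 4 libraries, 2893 in both Normal and neither HS library (Normal-only), 738 in both HS and 1 Normal library, and 1771 in a single HS library alone. Heat-only regions were thus fewer than Normal-only regions, a count that the peak calls set.

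The edge of the rule was narrow for some regions. The heat-only region closest to a Normal peak lay 1 bp from it, and 4 lay within 50 bp of one. Just outside the rule, 206 regions called in both HS libraries overlapped a Normal peak by at most 50 bp. The 738 regions that missed the rule by a peak in 1 Normal library had a median length of 381 bp and a median level of 0.686 CPM in HS nuclei (cut sites scaled to a library total of 1000000 in nuclei), beside 354 bp and 0.660 at the heat-only regions.

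Heat-only regions were short. Their lengths ran from 2 to 5224 bp with a median of 354 bp, and the middle 50% lay between 253 and 475 bp. Only 56 of 1588 reached 1000 bp, 5 reached 2000 bp, and 237 stayed under 200 bp. Normal-only regions had a median of 332 bp, so the lengths of both condition-bound classes largely overlapped, whereas regions called in all 4 libraries had a median of 1582 bp. Regions called in a single HS library were shorter still, with a median of 100 bp. The called length differed little between the HS libraries as a whole, whose medians were 311.5 bp (replicate 1) and 321.5 bp (replicate 2).

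The 5 longest heat-only regions exceeded 2000 bp and were called over most of their span in both HS libraries. chr9:7329513-7334736 spanned 5224 bp, of which replicate 1 called 4132 bp and replicate 2 all 5224 bp. chr7:17312843-17317619 spanned 4777 bp, with 4738 and 4767 bp called. chr10:1203212-1206835 spanned 3624 bp, with 3018 and 3568 bp called. DNA of that length would wrap around several nucleosomes. The next 2 were chr7:21068917-21072008 (3092 bp) and chr9:1131337-1133508 (2172 bp). The 5 held between 1.80 and 2.81 CPM per kb of called length, a density like that of the short heat-only regions, whose median was 2.13 over all 1588.

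Heat-only regions lay about as close to chromatin open in every library as regions of that chromatin lay to each other. The gap from their edge to the nearest region called in all 4 libraries had a median of 983 bp, and 809 of 1588 (50.9%) lay within 1000 bp and 1186 (74.7%) within 2000 bp. Regions called in all 4 libraries lay a median of 1034 bp from the next of their kind, and Normal-only regions 1199 bp from one. Within 1000 and 2000 bp lay 48.3% and 76.5% of regions called in all 4 libraries, and 41.5% and 69.6% of Normal-only regions. Of regions called in a single HS library, 56.0% and 79.2% did. Peaks of 1 library always lay more than 500 bp apart, and few gaps fell under that length. At the other end, 48 heat-only regions (3.02%) were more than 10000 bp away, up to 50234 bp. Regions called in all 4 libraries exceeded 10000 bp in 1.76% of cases.

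**Figure D1:**
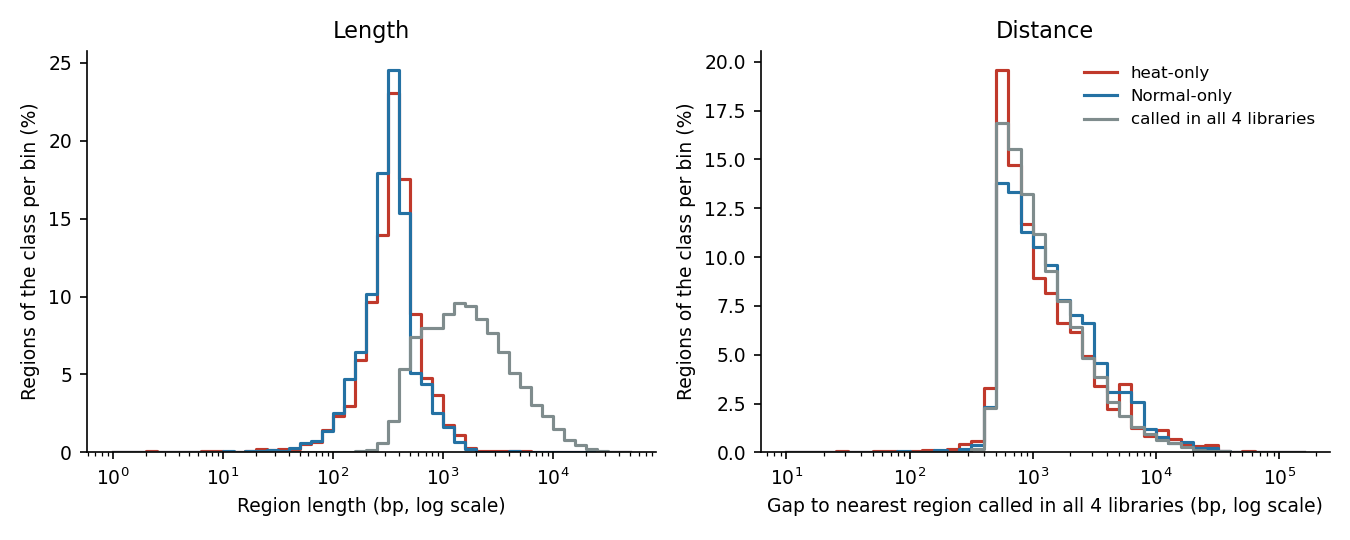
Left, length of regions, and right, gap to the nearest region called in all 4 libraries, both in bp on a log scale, as the percentage of each class per bin (heat-only, n = 1588; Normal-only, n = 2893; called in all 4 libraries, n = 55496). Heat-only and Normal-only lengths peak together below 500 bp (medians 354 and 332 bp), well left of regions called in all 4 libraries (1582 bp), whereas the 3 gap curves largely overlap (medians 983, 1199 and 1034 bp).

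Signal in heat-only regions was low. Over both HS libraries the median was 0.660 CPM, and the median share of nuclei with at least 1 cut site was 1.29%. At regions called in all 4 libraries the same HS nuclei gave 7.64 CPM and 10.6% of nuclei. Regions called in all 4 libraries with lengths of 253 to 475 bp (3592 regions), lengths like those of heat-only regions, gave 0.802 CPM and 1.45% of nuclei. Per kb of called length the medians were 2.13 CPM in heat-only regions and 2.49 in those 3592 regions. Normal-only regions, measured in Normal nuclei, gave 0.659 CPM and 1.11% of nuclei. Normal nuclei were shallower, with medians of 23709 and 23839.5 cut sites, against 27765 and 28143 in HS nuclei. The shares of nuclei were not adjusted for this, and its part in their difference was not tested. Only 56 heat-only regions reached 2 CPM in both HS libraries, and 2 had a cut site in at least 10% of the nuclei of both.

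Together the 1588 regions held 0.126% of the cut sites of HS replicate 1 nuclei and 0.129% of those of replicate 2, in 0.412% and 0.424% of the called length. Barcodes with under 1000 cut sites gave shares of 0.182% and 0.184%. Of all cut sites in heat-only regions, 92.4% in either library lay in nuclei, against 93.8% of the cut sites of all regions. The share was thus higher in barcodes of low count than in nuclei, and the part of DNA outside nuclei in the levels was not tested.

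The region with the most cut sites was chr7:17312843-17317619, with 4488 cut sites (13.7 CPM) in HS replicate 1 and 4383 (13.1 CPM) in replicate 2. It was open in 16.7% of replicate 1 nuclei (95% exact interval 16.0 to 17.4%) and 16.6% of replicate 2 nuclei (15.9 to 17.3%), intervals that cover counting error only. Second came chr2:6985462-6986253, a region of 792 bp with 9.96 and 10.5 CPM and 13.5% and 14.3% of nuclei. Its density of 12.9 CPM per kb was the highest of all 1588, and well above the median of 5.02 at regions called in all 4 libraries. The chr2 region is thus short and strong, whereas the chr7 region is long and less dense, at 2.81 CPM per kb.

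The other 8 of the 10 highest regions spanned lower levels. chr9:7329513-7334736 gave 8.91 and 10.5 CPM, chr10:1203212-1206835 gave 6.31 and 6.96, and chr7:29394192-29395472 gave 6.29 and 6.35. chr7:21068917-21072008 gave 6.16 and 5.43 CPM, chr6:24768928-24770220 gave 5.43 and 4.98, and chr12:4767278-4768727 gave 5.04 and 4.91. The last 2 were chr1:14160567-14161340, with 4.23 and 4.8, and chr8:9070288-9071279, with 4.34 and 4.48. Neighbours in this order differed by no more than the HS libraries did, apart from the step below chr7:17312843-17317619 and that below chr9:7329513-7334736. The 10 regions together held 5.58% and 5.57% of the cut sites in heat-only regions. Denser than the median region called in all 4 libraries in both HS libraries were only 4 heat-only regions.

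The HS libraries gave like levels at strong regions and scattered at weak ones. Among 1478 heat-only regions with at least 10 cut sites in both libraries, 1180 (79.8%) were within 2-fold between replicates, and Pearson's r of the log2 levels was 0.65 across regions, which are not independent replicates. The log2 ratio of the cut sites between the replicates had an SD of 1.00, and across regions it followed the log2 ratio of the called lengths with r = 0.97. At the 511 regions whose called lengths differed by less than 10%, the SD was 0.15. In 28 heat-only regions at least 1 HS library had 0 cut sites in nuclei inside its own peak, which allows up to 3 counts there, so the level was not detectable. Called lengths at heat-only regions ran down to 1 bp in either HS library. The parts of called length and depth in these zeros were not tested.

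**Figure D2:**
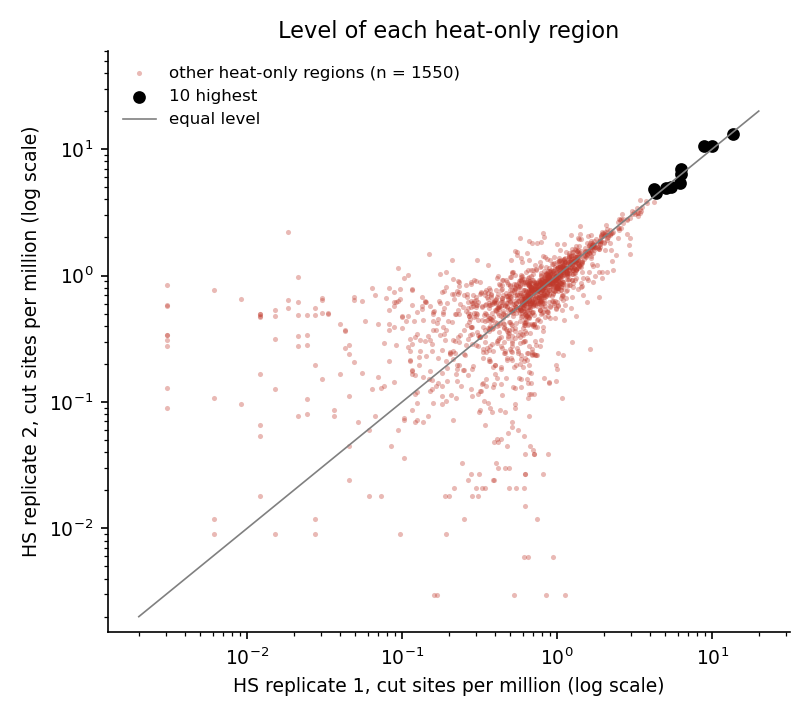
CPM in HS replicate 1 (x axis) and HS replicate 2 (y axis), both on log scales, with 1 point per heat-only region that had a cut site in both libraries, the 10 highest in black and the line of equal level in grey. The 10 highest regions lie along the line between 4.23 and 13.7 CPM, whereas points below 1 CPM spread away from it in both directions.

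Heat-only regions occurred on all 12 chromosomes, at 3.51 to 5.32 per Mb up to the last peak of the chromosome. Chromosome 8 had the highest number per Mb, with 148 regions or 2.94% of its merged regions, followed by chromosome 7 with 150 regions (5.09 per Mb, 2.81%). Chromosome 5 had the fewest per Mb (105 regions), and chromosome 1 the smallest share of merged regions (160 regions, 2.00%). Normal-only regions made up between 3.08% of the merged regions on chromosome 3 and 5.88% on chromosome 11.

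Along the chromosomes, heat-only regions were sparse in some segments near the ends. With each chromosome split into 10 equal segments, the first segment held 8.31% of heat-only regions, the ninth 7.87% and the last 8.19%, while regions called in all 4 libraries had 10.5%, 10.9% and 10.7% there. Normal-only regions had 10.6%, 9.02% and 9.13% in the same segments. In the second segment the order was turned round, with 11.6% of heat-only regions and 10.8% of regions called in all 4 libraries. The fifth did the same, with 11% and 8.0%. The distance to the nearer chromosome end had a median of 8.11 Mb at heat-only regions, 7.52 Mb at Normal-only regions and 7.29 Mb at regions called in all 4 libraries. The surroundings were also less open: in the 200 kb around a heat-only region, regions called in all 4 libraries covered a median of 35.1%, beside 34.7% around Normal-only regions and 43.1% around regions called in all 4 libraries. These figures describe regions, which share chromosomes and are not replicates, and no test was made.

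**Figure D3:**
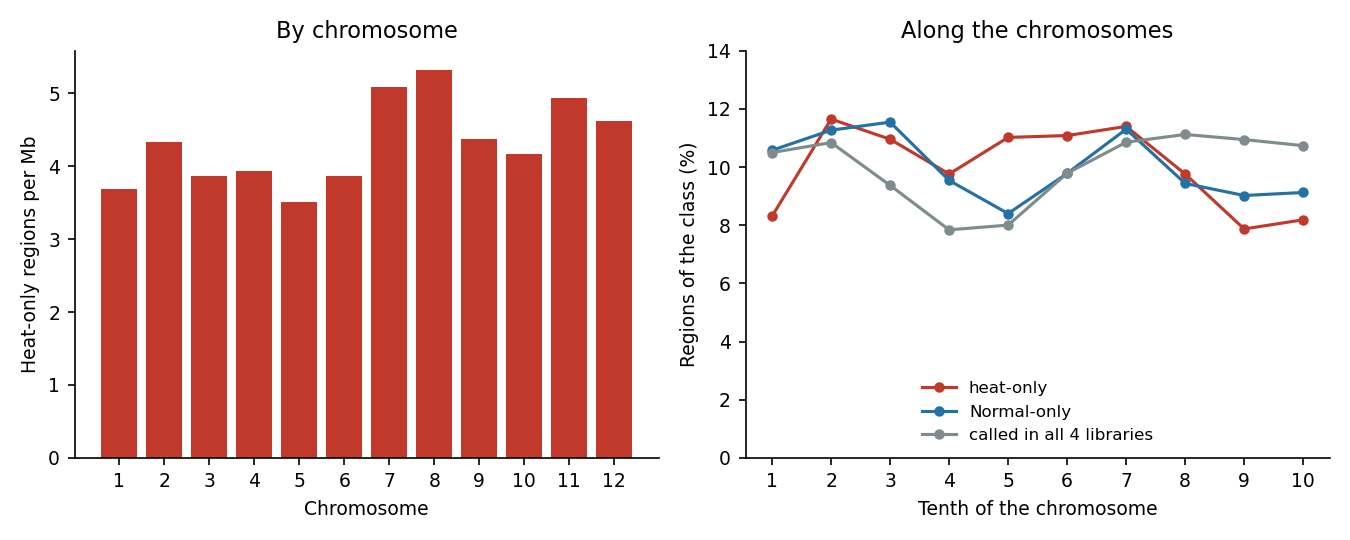
Left, heat-only regions per Mb for each chromosome, and right, the percentage of each class in each of 10 equal segments of the chromosomes (line colours: heat-only, n = 1588; Normal-only, n = 2893; called in all 4 libraries, n = 55496). Bars run from 3.51 on chromosome 5 to 5.32 on chromosome 8, and the heat-only line lies below that of regions called in all 4 libraries in the first segment (8.31% against 10.5%) and above it in the fifth (11% against 8.0%).

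Most heat-only regions had no other heat-only region within 5000 bp. The median gap to the next heat-only region was 67340 bp, and 190 (12%) had another within 5000 bp. Among the more numerous Normal-only regions, 487 of 2893 (16.8%) had another of their kind within that distance. The share that an even spread would give was not worked out. No run of heat-only regions at most 5000 bp apart had more than 3 members. There were 6 such runs of 3, among them chr7:21066931-21073172, which includes the region of 3092 bp named above. Of the 378 bins of 1 Mb that held a merged region, 13 had no heat-only region and 12 had at least 10. The fullest bin held 16 heat-only regions and lay on chromosome 11, between 18 and 19 Mb.

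Nearly every HS nucleus carried some heat-only regions. A nucleus had a cut site in a median of 19 of them in replicate 1 and 20 in replicate 2, with the middle 90% of nuclei between 5 and 52 in replicate 1 and between 6 and 53 in replicate 2. Only 4 nuclei in each library had none. Per 10000 cut sites of a nucleus, a median of 12 in replicate 1 and 12.2 in replicate 2 lay in heat-only regions. The 10% of nuclei with the highest rates held 14.0% and 14.3% of all cut sites in these regions. Summed over all heat-only regions, the signal was thus not confined to a few nuclei. The ranking was by rate and not by cut sites, and no other set of regions was compared. These figures pool all heat-only regions, so they cannot show whether few nuclei carried a single region.

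HS nuclei were then grouped by cut sites at marker loci, to ask which of them carried the heat-only regions. Root hair-like nuclei were placed by 13 regions at 12 root hair genes and root cap-like nuclei by 21 regions at 12 root cap genes. These genes are not all separate loci. Those from LOC_Os10g31640 to LOC_Os10g31720 lie between 16838751 and 16883974 on chromosome 10 and share regions. The regions of LOC_Os10g42750 alone could meet the limit of 3 regions for root hair. Those of LOC_Os02g40070 or LOC_Os03g60279 alone could meet it for root cap. A further group was placed by a single region at LOC_Os01g15610, an endodermis marker of the study, and receives no cell type name. The root hair and root cap loci were picked from the study's marker genes with earlier results of these data known. The study found marker genes by accessibility in libraries of this series and compared them with markers published before. Its account of them comes before that of the heat-stressed nuclei. The groups are therefore not independent of this series. Replicate 1 and replicate 2 gave 1307 and 1335 root hair-like nuclei, 640 and 572 root cap-like nuclei, 786 and 811 nuclei with signal at LOC_Os01g15610, and 7617 and 7631 ungrouped nuclei. The groups are ranges of a score: 999 and 1007 nuclei lay within 25% of the root hair limit, 1104 and 1100 within 25% of the root cap limit, and 633 and 717 within 25% of the limit at LOC_Os01g15610. Nuclei that passed more than 1 list (369 and 378) were left out.

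The groups were not clean of each other's markers or equal in depth. Root cap loci had 7.0 and 7.17 cut sites per 10000 in root hair-like nuclei, against 4.48 and 4.51 in ungrouped nuclei. Root hair loci had 4.14 and 4.30 per 10000 in root cap-like nuclei, against 2.52 and 2.53 in ungrouped nuclei. Nuclei with signal at LOC_Os01g15610 were deeper, with medians of 34053 and 34375 cut sites, against 27465 and 28074 in ungrouped nuclei, and root cap-like nuclei were shallower, with 23365.5 and 23582. The part of these differences in the results below was not tested.

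As a whole, heat-only regions took similar shares of the cut sites in every group. They received 13.5 and 13.8 of 10000 cut sites in root hair-like nuclei of replicates 1 and 2, 11.9 and 12.4 in root cap-like nuclei, 12.9 and 13.3 in nuclei with signal at LOC_Os01g15610, and 12.4 and 12.7 in ungrouped nuclei. The order of the 4 groups was the same in both libraries, with root hair-like nuclei on top and root cap-like nuclei at the bottom. Between neighbours in that order the values of both libraries did not overlap, but the lower ungrouped and the higher root cap-like value both round to 12.4, and no test was made. Without the 10 highest regions the rates were 12.9 and 13.2 in root hair-like nuclei, 11.1 and 11.6 in root cap-like nuclei, 12.3 and 12.6 in nuclei with signal at LOC_Os01g15610, and 11.7 and 12 in ungrouped nuclei.

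Region by region, cut sites were summed per group and library and tested with edgeR's quasi-likelihood test across 57414 regions called in both HS libraries, with the library as a block and Benjamini-Hochberg adjustment. A region was called at an adjusted p of at most 0.01 and a difference of at least 2-fold. The filter on low counts kept 1473 of the 1588 heat-only regions, so 115 had too few cut sites to be tested. In root hair-like nuclei, 141 heat-only regions (9.57% of those tested) were higher than in ungrouped nuclei, where 6.9% of all regions tested were, and 79 (5.36%) were lower, where 5.75% of all regions were. The median log2 difference was 0.04 over heat-only regions and -0.01 over all regions, and over heat-only regions it turned to -0.03 with the limit for root hair-like nuclei at 3 times the library mean, -0.02 without HS replicate 1 and -0.01 without HS replicate 2. In root cap-like nuclei, 71 heat-only regions (4.82%) were higher, beside 4.95% of all regions, and 73 (4.96%) were lower, beside 7.5%. The median log2 difference there was -0.15 over heat-only regions and -0.01 over all regions. In nuclei with signal at LOC_Os01g15610, 58 (3.94%) were higher, beside 2.42% of all regions, and 52 (3.53%) were lower, beside 3.1%, with medians of -0.01 and 0.01.

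The share of heat-only regions called higher, set against all regions, depended on the fit. Without the library as a block, edgeR called 71 heat-only regions higher in root hair-like nuclei (4.82%), beside 6.31% of all regions, and 28 lower (1.9%), beside 5.05%. In root cap-like nuclei that fit called 30 higher (2.04%), beside 4.54%, and 33 lower (2.24%), beside 6.63%. At LOC_Os01g15610 it called 25 higher (1.7%), beside 2.12%, and 21 lower (1.43%), beside 2.64%. The shares called higher in root hair-like nuclei and at LOC_Os01g15610 were above those of all regions with the block and below them without it. In every other fit tried they stayed above. At 3 times the library mean, for example, they were 6.95% beside 5.97% in root hair-like nuclei and 3.95% beside 2.55% at LOC_Os01g15610. The fit without the block leaves out that the groups of a library share that library. An excess of heat-only regions in either group thus rested on the fit, and none was tested.

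DESeq2 gave an adjusted p to 1251 of the 1588 heat-only regions in the root hair-like and root cap-like comparisons. Of these, 95 were higher in root hair-like nuclei (7.59%, beside 6.59% of all regions) and 26 lower (2.08%, beside 5.12%). In root cap-like nuclei 52 were higher (4.16%, beside 4.8%) and 31 lower (2.48%, beside 6.56%). At LOC_Os01g15610, where all 1588 had an adjusted p, 36 were higher (2.27%, beside 2.16%) and 19 lower (1.2%, beside 2.6%).

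Calls also depended on the level. Among the 530 heat-only regions of highest level, 64 (12.1%) were higher and 39 (7.36%) lower in root hair-like nuclei, both above the 6.9% and 5.75% of all regions. Among the 529 of lowest level, 414 were tested, of which 22 (5.3%) were higher and 9 (2.17%) lower, both below those shares. In 701 heat-only regions tested (47.6%), the group with the highest level was not the same in both libraries, beside 29.7% of all regions tested. Where it was the same, root hair-like nuclei led in 265 regions (18.0%, beside 18.7% of all regions) and root cap-like nuclei in 154 (10.5%, beside 18.3%). Nuclei with signal at LOC_Os01g15610 led in 199 (13.5%, beside 18.5%) and ungrouped nuclei in 154 (10.5%, beside 14.9%). These shares were not compared at like level. The median level was 0.660 CPM at heat-only regions and 7.64 at regions called in all 4 libraries, and its part in the shares was not tested.

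The 10 highest regions differed in where they were open. chr9:7329513-7334736, the longest region, was highest in ungrouped nuclei. It had 2.44 and 3.17 CPM in root hair-like nuclei of replicates 1 and 2, 2.48 and 1.98 in root cap-like nuclei, 3.45 and 6.98 in nuclei with signal at LOC_Os01g15610, and 11.4 and 13.2 in ungrouped nuclei. The log2 differences from ungrouped nuclei were -2.07 ± 0.15 (SE), -2.41 ± 0.20 and -1.26 ± 0.14, and edgeR's adjusted p was 5.8e-16, 8.61e-14 and 3.08e-10. All 6 grouped values lay below both ungrouped values.

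chr7:17312843-17317619 had 5.73 and 6.23 CPM in root hair-like nuclei and 14.3 and 13.4 in ungrouped nuclei (log2 -1.14 ± 0.10, edgeR's adjusted p = 1.78e-13). In nuclei with signal at LOC_Os01g15610 it had 20.1 and 19.4 CPM, a log2 difference of 0.50 that passed the limit on p (3.58e-06 in edgeR) but not that on size. chr7:29394192-29395472 was higher in 2 groups, with 11.6 and 11.8 CPM in root hair-like nuclei and 13.1 and 14.6 in root cap-like nuclei, against 4.49 and 4.40 in ungrouped nuclei. The log2 differences were 1.47 ± 0.11 and 1.68 ± 0.13 (edgeR's adjusted p = 5.02e-15 and 7.95e-15). chr8:9070288-9071279 had the same pattern, with 7.49 and 8.21 in root hair-like nuclei, 8.45 and 8.70 in root cap-like nuclei and 3.40 and 3.41 in ungrouped nuclei.

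chr12:4767278-4768727 was higher in root cap-like nuclei, where it had 10.4 and 10.1 CPM, against 5.30 and 5.16 in ungrouped nuclei (log2 1.02 ± 0.14, edgeR's adjusted p = 1.14e-07). The dense region chr2:6985462-6986253 was level across the groups. It had 8.84 and 10.1 CPM in root hair-like nuclei, 10.8 and 11.5 in root cap-like nuclei, 9.85 and 10.4 in nuclei with signal at LOC_Os01g15610, and 10.1 and 10.5 in ungrouped nuclei, with log2 differences of -0.05 ± 0.10, 0.16 ± 0.11 and -0.03 ± 0.10. None of the 3 groups differed from ungrouped nuclei by as much as 2-fold at chr10:1203212-1206835, chr7:21068917-21072008, chr6:24768928-24770220 or chr1:14160567-14161340.

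The 5 heat-only regions with the largest excess in root hair-like over ungrouped nuclei were led by chr12:18953098-18953462, a region of 365 bp with 3.14 and 4.10 CPM in root hair-like nuclei, against 0.480 and 0.458 in ungrouped nuclei (log2 3.00 ± 0.26, edgeR's adjusted p = 3.86e-13). chr7:15850858-15851260 followed with 3.27 and 3.17, against 0.596 and 0.344 (log2 2.87 ± 0.26). chr12:15902544-15903811 was the strongest of the 5, with 12.9 and 12.8 in root hair-like nuclei, against 1.90 and 1.89 in ungrouped nuclei (log2 2.83 ± 0.14). It overlaps the 3′ part of LOC_Os12g27040 (chromosome 12, 15901691 to 15903023, plus strand) and runs beyond it, and it was also higher in root cap-like nuclei, with 5.02 and 4.38 CPM. chr3:8164663-8165561 had 9.23 and 10.8, against 1.51 and 1.78 (log2 2.68 ± 0.16), and chr9:5777688-5778014 had 2.41 and 2.28, against 0.429 and 0.361 (log2 2.64 ± 0.29). At all 5, both root hair-like values lay above every value of the other groups. The regions were picked by their rise over ungrouped nuclei in these same counts, so the choice in part set this order.

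The largest differences of the 15 regions named for a group were in root cap-like nuclei. chr3:22554683-22555429 had 12.3 and 8.77 CPM there, against 0.695 and 0.172 in ungrouped nuclei (log2 4.77 ± 0.29, edgeR's adjusted p = 1.17e-17). chr2:6237686-6238189 had 8.26 and 8.06, against 0.510 and 0.348 (log2 4.31 ± 0.29). It lies inside LOC_Os02g12010 (chromosome 2, 6237124 to 6240837, minus strand). This gene is in the study's own root cap list, as LOC_Os12g27040 is in its root hair list. Neither gene was among the loci that placed the nuclei here. Both lists of the study were drawn from libraries of this series, so neither is independent evidence of the direction. chr3:22554683-22555429 and chr2:6237686-6238189 had little signal outside the root cap-like group, with at most 0.670 CPM in root hair-like nuclei and nuclei with signal at LOC_Os01g15610. chr4:2490959-2491292 had 4.96 and 3.82, against 0.665 and 0.445 (log2 3.03 ± 0.28). The other 2 rest on few cut sites: chr3:20584818-20584973 had 73 and 36 cut sites in all nuclei, and chr7:22144248-22144362 had 16 and 69. Their log2 differences were 4.16 ± 0.45 and 3.72 ± 0.54, and that of chr7:22144248-22144362 did not pass the limit without the library as a block (edgeR's adjusted p = 0.0314).

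In nuclei with signal at LOC_Os01g15610 the differences were smaller. chr4:18845360-18845770 had 4.72 and 3.95 CPM, against 0.780 and 0.802 in ungrouped nuclei (log2 2.45 ± 0.24, edgeR's adjusted p = 1.45e-11). It was higher in root cap-like nuclei too, at 2.10 and 2.40. The region lies close to LOC_Os04g31610, a root cap locus that placed the nuclei, so its rise in root cap-like nuclei is not independent of the grouping. chr9:8955741-8956067 had 2.28 and 1.43, against 0.540 and 0.315 (log2 2.12 ± 0.29). The remaining 3 changed with the block. chr8:25884800-25885091 had 1.54 and 2.01, against 0.253 and 0.453, with edgeR's adjusted p = 6.21e-08 with the block and 0.0136 without it. chr12:7360454-7360768 had 2.55 and 0.670, against 0.532 and 0.130, with 1.23e-07 and 0.0499. chr2:11395860-11396210 had 0.469 and 2.90, against 0.103 and 0.630, with 7.82e-07 and 0.124. In the last 2 the called length differed between the HS libraries (315 and 79 bp, and 67 and 351 bp), and the fold over ungrouped nuclei was alike in both.

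**Figure D4:**
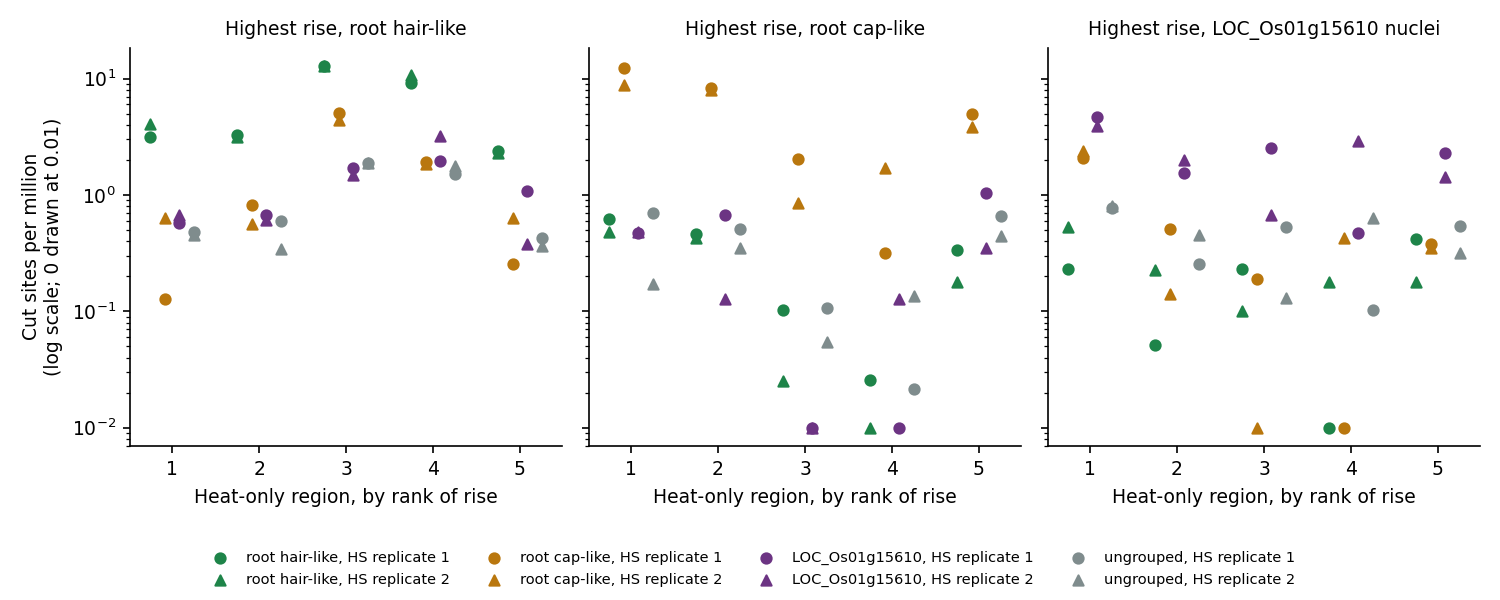
CPM of each nucleus group (log scale, 0 drawn at 0.01) at the 5 heat-only regions with the largest rise over ungrouped nuclei in root hair-like nuclei (left), root cap-like nuclei (middle) and nuclei with signal at LOC_Os01g15610 (right), ordered by rise, with circles for HS replicate 1 and triangles for HS replicate 2. In the left panel both root hair-like points lie above every other point of the region, and in the middle panel the first region stands at 12.3 and 8.77 in root cap-like nuclei, against 0.695 and 0.172 in ungrouped nuclei.

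Regions called in all 4 libraries that lie beside heat-only regions have counts in both conditions, but each library was counted over the stretch it called. A difference in these counts is therefore one of called length and of signal together, and is no test of a change in chromatin at a fixed stretch. The same libraries chose the heat-only regions, so the comparison is not independent of that choice. Within 2000 bp, 1186 heat-only regions had 1164 such neighbours. In a fit of HS against Normal nuclei over all 55496 regions called in all 4 libraries, 59 neighbours (5.07%) had higher counts in HS, beside 1.93% of all regions, and 14 (1.2%) had lower counts, beside 2.63%. The median log2 difference in counts was 0.13 over the neighbours and 0.00 over all regions. Regions within 2000 bp of a Normal-only region went the other way, with 30 of 1962 (1.53%) higher in HS, 96 (4.89%) lower and a median of -0.09.

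Called length moved with this result. Neighbours were called longer in HS in 69.0% of cases, beside 50.6% of all regions, and 46 of the 59 higher neighbours had a called length at least 1.5-fold that in Normal. Per kb of called length, the median log2 ratio of HS over Normal was 0.02 at the neighbours and -0.00 over all regions. Among 23675 regions whose called lengths differed by less than 10% between libraries, the median log2 difference in counts was 0.05 over 421 neighbours and -0.00 over all. In that set edgeR called 0.0549% of all regions higher and 0.038% lower, too few for the 0 neighbours called in either direction to be read. By distance to the heat-only region, the median log2 difference in counts was 0.12 within 1000 bp, 0.15 between 1000 and 2000 bp, 0.10 between 2000 and 5000 bp, and 0.17 beyond 5000 bp.

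The 5 called neighbours with the largest difference in counts were regions called long in HS and short in Normal. chr12:21114389-21115842, which lies 662 bp from a heat-only region of 97 bp, was called over 1442 and 1433 bp in HS, against 76 and 200 bp in Normal. It held 3.62 and 3.49 CPM in HS, against 0.135 and 0.479 CPM in Normal, but per kb of called length 2.51 and 2.43 CPM in HS, against 1.77 and 2.39 CPM in Normal. Called length thus differed far more than density. chr8:3414619-3416960 was called over 2243 and 2284 bp in HS, against 369 and 376 bp in Normal, with 1.89 and 1.77 CPM per kb in HS, against 1.69 and 1.61 in Normal. chr1:11895183-11896398 was called over 903 and 1216 bp in HS, against 100 and 120 bp in Normal, with 2.25 and 2.07 CPM per kb in HS, against 1.73 and 1.91 in Normal. At chr11:18121771-18122221 (434 and 437 bp in HS, against 91 and 17 bp in Normal) and chr7:28048883-28049930 (833 and 997 bp in HS, against 153 and 209 bp in Normal) the densities of the conditions overlapped. Normal signal outside the short Normal peaks was not measured.

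**Figure D5:**
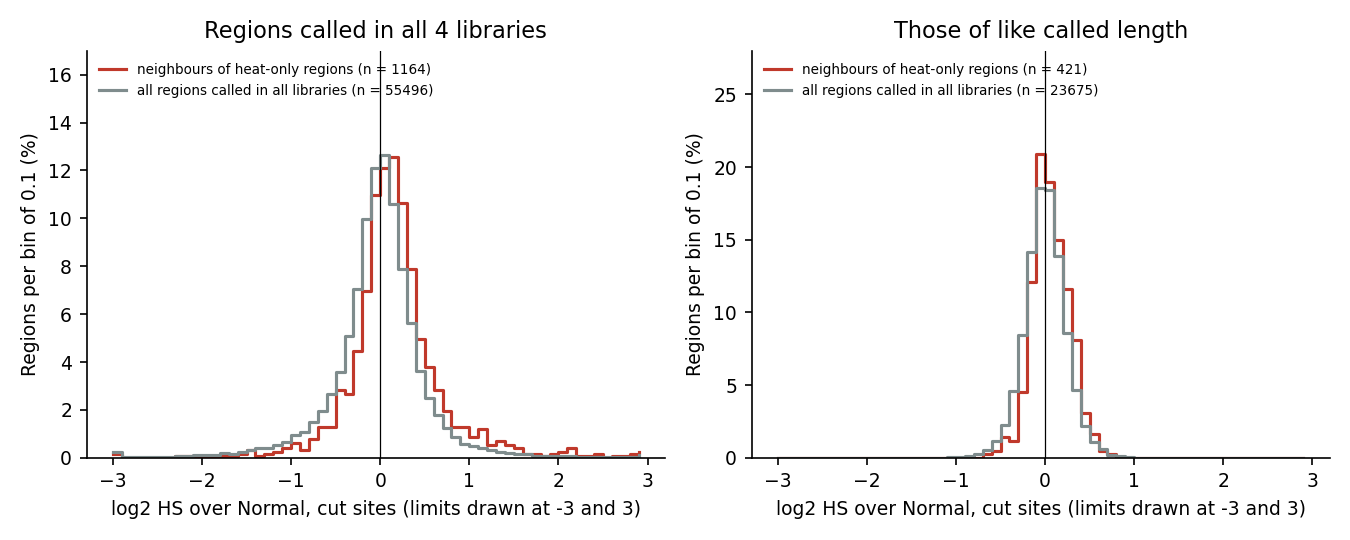
Distribution of the log2 difference of cut sites in called stretches, HS over Normal, as the percentage of regions per bin of 0.1 (values beyond -3 and 3 drawn there), for neighbours within 2000 bp of a heat-only region and for all regions called in all 4 libraries (left, n = 1164 and 55496; right, those of like called length, n = 421 and 23675). The neighbour curve is moved to the right on the left (median 0.13 against 0.00), and less so on the right (0.05 against -0.00).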

How the data were processed

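Single-cell ATAC sequencing was done on nuclei of rice root tips, with 2 HS and 2 Normal libraries grouped by their titles. Per the submitters' processing notes, the authors used Cell Ranger ATAC 1.2.0 and deposited for each library a peak list (chromosome, start and end, an unscored list), a barcode list and a matrix of raw counts, which are Tn5 cut sites per peak and barcode, not normalized and over all barcodes. The genome build and the peak caller's settings were not stated in what was read here. Positions are those of the files, and neither sequences nor motifs were analysed here. The members and gene lists were chosen with earlier results of these data known.

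Nuclei were the barcodes with most cut sites, in the number per library that a supplementary table of the study gives. No doublet caller was run. A HS nucleus joined a group when its rate at the marker regions (gene body or 2000 bp upstream) was at least 2 times the library mean with at least 6 cut sites, in at least 3 regions for root hair and root cap. CPM of a group is relative to its cut sites in the 57787 regions called in both HS libraries that are not marker regions, which stayed out of the fits. Counts were summed per group and library and tested with edgeR 4.0.16 (R 4.3.3, TMM, filterByExpr, quasi-likelihood), with limits from the study's methods (adjusted p of 0.01, 2-fold). The HS library was a block in the group fits since all groups of a library come from that library. HS and Normal were compared without a block. DESeq2 1.42.0 was an alternative. Named regions were the 10 heat-only regions highest in level, the 5 longest, the 5 with the largest rise per nucleus group and the 5 neighbours with the largest rise among those called. The fits were tested on simulated data. Python 3.11.15, numpy 2.4.6, pandas 2.3.3, scipy 1.17.1 and matplotlib 3.10.9 were used. Exact intervals are Clopper-Pearson at a level of 0.95. Alternatives covered merging, sharing, peak filters, nuclei, group limits, blocks, tools and single libraries left out.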

Additional observations from a re-analysis of the deposited data

How the results depend on the processing

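The number of heat-only regions was 1517 with peaks up to 500 bp apart merged, 1617 where an HS peak counted as shared only at 50% overlap, and between 1919 and 2668 with 1 library left out (2668 without HS replicate 1, 2604 without HS replicate 2). Keeping only peaks of at least 5 CPM gave 1444 regions, but only 6 of the 1588 were among them, and the median length, gap and level became 1400 bp, 2902 bp and 5.96 CPM, where a Normal peak below that limit no longer counted by construction. With libraries left out, the median length ran between 223 and 358 bp, the gap between 934 and 998.5 bp and the level, with an HS library left out, between 0.469 and 0.493 CPM. The gap was 1006 bp with the looser merging and 973 bp with the stricter sharing.

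Without the replicate block, calls among heat-only regions were 71 higher and 28 lower in root hair-like nuclei, 30 and 33 in root cap-like nuclei, and 25 and 21 at LOC_Os01g15610, each among those called with it. The shares called higher then lay below those of all regions in all 3 groups (4.82, 2.04 and 1.7%, beside 6.31, 4.54 and 2.12%). DESeq2 called 95 and 26, 52 and 31, and 36 and 19, again all among the edgeR calls, or 7.59, 4.16 and 2.27% higher, beside 6.59, 4.8 and 2.16% of all regions with an adjusted p. The median log2 difference in root hair-like nuclei was -0.03 at 3 times the library mean, and -0.02 and -0.01 with either HS replicate left out, where no test is left. The cause was not tested. Of 142 values of single named regions tested under another fit, 4 lost their call and 0 turned direction. A further 30, with an HS replicate left out, kept their direction but had no test. No value was had for chr7:22144248-22144362 with DESeq2, at 1.5 times the mean or without the deepest nuclei, or for the 5 named neighbours at like called length.

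Neighbours called were 38 higher and 9 lower within 1000 bp, and 0 and 0 at like called length, where 13 and 9 of all 23675 regions were called. With 1 library left out, 61 to 64 were higher and 10 to 22 lower (22 without HS replicate 1, 20 without HS replicate 2), where a lone sample was assumed to vary like the other group. HS and Normal samples share replicate numbers only. The correlation of their deviations over 55496 regions was 0.01, and with the replicate number as a block 61 neighbours were higher and 13 lower. Few cut sites limit what can be said of the weakest regions: 115 could not be tested and 28 had 0 cut sites in a library.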
